A study of Mus musculus with 7 samples.

Results

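A set of 8 genes of actin bundling and membrane anchoring was followed through kidney tissue of mouse embryos and a collecting duct cell line: the fascin gene Fscn1, the ezrin, radixin and moesin genes Ezr, Rdx and Msn (the ERM family), the villin gene Vil1, the plastin genes Pls1 and Pls3, and the espin gene Espn. The members were every probe set annotated to exactly 1 of these 8 genes, which gave 15 probe sets of the 45037 on the arrays that are not controls, and 8 of 18193 genes. The list was drawn up by function, and Fscn1 in it was chosen by its measured loss in the cell line, that is, by its intensity on the cell line's array against the tissues. That loss is given as a description without a test, and the values that chose Fscn1 support nothing further.

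RNA was hybridised to 7 Affymetrix mouse arrays, each with a single sample. In the embryonic kidney an epithelial outgrowth, the ureteric bud, grows and forks within the metanephric mesenchyme that surrounds it. Mesenchyme, bud stalk and bud tip were microdissected at E12.5 and had 2 arrays each, which the labels call biological replicates. The labels give no strain, and whether embryos were pooled is not stated in the sources used here, so p-values measure only the spread between these samples. The seventh array held a freshly isolated subclone of mIMCD-3, a mouse cell line of inner medullary collecting duct origin, cultured until confluent in DMEM. It is 1 subclone on 1 array, and the 6 tissue arrays had been published earlier, so the line, its culture and its hybridisation cannot be told apart. Values are log2 intensities after robust multichip analysis (RMA), and differences are in log2 units, where 1 unit is a doubling. A gene is represented by its brightest probe set unless another is named, and levels of different probe sets are set against each other only as percentiles within an array, which give a rough place and no measure of transcript amounts.

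Actin filaments are drawn into tight parallel bundles by a small set of crosslinking proteins. Fascin builds the bundles of filopodia, and villin, plastin 1 and espin build the core of microvilli on the apical face of epithelia. Ezrin, radixin and moesin bind membrane proteins with one end and actin filaments with the other. Ezrin is the form best known from the apical side of epithelia, and moesin the form best known from endothelium and blood cells.

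The stretches before the start sites of Fscn1, Ezr and Msn are shown because these 3 genes had the largest differences of the set and took different courses through the 4 groups. Each is the 250 bases before the start site in RefSeq (build GRCm38.p6), written 5′ to 3′ on the strand of the gene. The capitals mark matches, on either strand, to a TATA box (TATAAA), a GC box (GGGCGG), an AP-1 site (TGANTCA) or a cAMP response element (TGACGTCA). No matches overlapped.
Fscn1, chr5:142960105-142960354, plus strand: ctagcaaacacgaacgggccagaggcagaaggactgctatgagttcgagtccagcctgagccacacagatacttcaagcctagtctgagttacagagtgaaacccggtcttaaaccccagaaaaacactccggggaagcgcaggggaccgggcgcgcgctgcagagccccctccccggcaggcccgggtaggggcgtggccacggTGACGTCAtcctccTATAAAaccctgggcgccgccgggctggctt
Ezr, chr17:6782781-6783030, minus strand: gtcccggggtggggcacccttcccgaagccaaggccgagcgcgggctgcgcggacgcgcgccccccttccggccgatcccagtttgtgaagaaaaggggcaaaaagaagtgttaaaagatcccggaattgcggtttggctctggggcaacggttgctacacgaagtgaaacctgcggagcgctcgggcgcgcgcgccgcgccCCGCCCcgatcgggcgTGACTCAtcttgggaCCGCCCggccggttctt
Msn, chrX:96095795-96096044, plus strand: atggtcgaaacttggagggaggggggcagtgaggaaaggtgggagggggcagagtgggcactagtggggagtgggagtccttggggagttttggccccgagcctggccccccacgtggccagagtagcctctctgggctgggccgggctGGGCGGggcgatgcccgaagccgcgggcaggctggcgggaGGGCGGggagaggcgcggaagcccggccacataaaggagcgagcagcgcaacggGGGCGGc
The Fscn1 stretch held 1 TATA box and 1 cAMP response element. The Ezr stretch held 2 GC boxes and 1 AP-1 site, and the Msn stretch held 3 GC boxes. Of all 32851 promoters of this length in the RefSeq table, 12.4% held the TATA box, 32.7% the GC box, 6.75% the AP-1 site and 1.55% the cAMP response element. GC content was 62.4% for Fscn1, 67.2% for Ezr and 71.6% for Msn, against a median of 52.4% over all promoters. A match is a description of letters, and no binding was measured.

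Markers bore out the labels in the main. Of 11 measured ureteric bud epithelium markers, 11 were higher in tip than in mesenchyme and 10 were higher in stalk, and 0 were lower in either comparison. Of 9 nephron progenitor markers, 8 were lower in tip and 7 in stalk. The stalk dissections held stromal RNA: the summed linear intensity of 10 renal stroma markers lay between 18220 and 19030 in mesenchyme, between 20350 and 21190 in stalk, and between 2242 and 2849 in tip. In bulk tissue, fewer cells of a type and less RNA per cell cannot be told apart, which holds for every tissue difference here. In mIMCD-3 the E-cadherin gene Cdh1 lay at 10.88 and the keratin gene Krt8 at 12.31, whereas the water channel gene Aqp2, a defining gene of the collecting duct, lay at 5.15 and within its tissue range of 4.88 to 5.49. Yet 7 of the 11 ureteric bud epithelium markers lay at least 1 log2 unit below the mean of stalk and tip. Only 1 lay above it by that size, and the median difference was -2.68. Calb1 (-9.71), Ret (-5.68) and Gata3 (-4.27) differed most. Of all genes, 9.33% were lower and 9.75% higher by that size. Median intensities were alike across the arrays, from 42.1 to 49.2 on the linear scale.

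**Figure D1:**
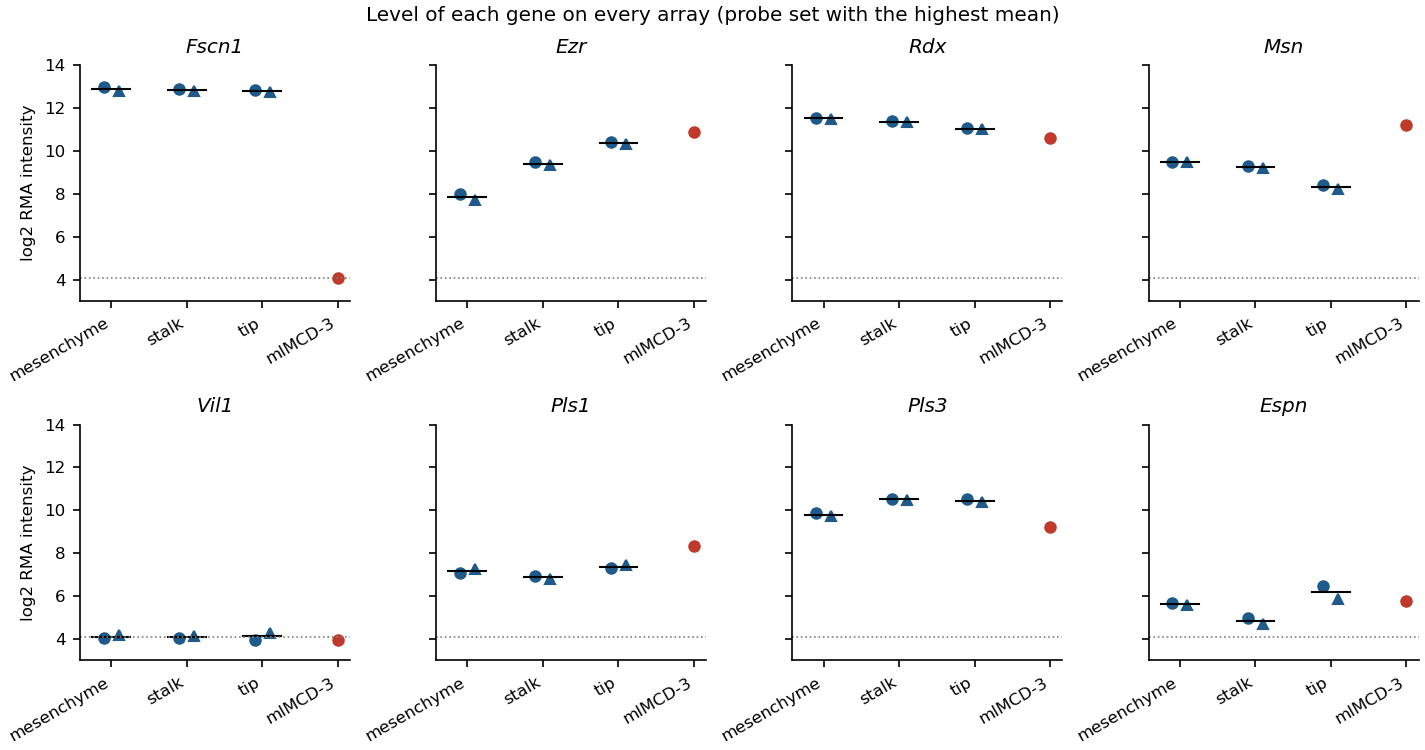
Level of each of the 8 genes on all 7 arrays, as log2 RMA intensity of the brightest probe set. Circles are replicate 1 and triangles replicate 2, tissues are blue and the single mIMCD-3 array red, black bars are group means and the dotted line is the mean lower quartile of the arrays. Fscn1 sits near 12.8 in every tissue and at 4.06 in mIMCD-3, Ezr climbs from mesenchyme to stalk to tip, and Vil1 stays on the dotted line.

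The brightest Fscn1 probe set read high in all 3 embryonic tissues and lay near the lower quartile of the array in mIMCD-3. Its brightest probe set, 1416514_a_at, read 12.98 and 12.81 in mesenchyme, 12.87 and 12.81 in stalk, 12.85 and 12.75 in tip, and 4.06 in mIMCD-3. The 6 tissue values thus spanned a narrow band whose groups overlapped, and the cell line stood far below all of them. Within each tissue array this probe set ranked at the percentile 99.4 or 99.5, and in mIMCD-3 at 26.5, just above that array's lower quartile of 3.99.

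Between the tissues no difference in Fscn1 passed the test. Stalk minus mesenchyme was -0.05 ± 0.13 (SE, 2 arrays a group; limma adjusted p = 0.941), with a 95% interval of -0.35 to 0.25. Tip minus mesenchyme was -0.09 ± 0.13 (interval -0.39 to 0.21; limma adjusted p = 0.799). Tip minus stalk was -0.04 ± 0.13 (interval -0.34 to 0.26; limma adjusted p = 0.881). The intervals leave room for differences of up to 0.39 log2 units between epithelium and mesenchyme, so equal levels were not shown.

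The drop of Fscn1 in mIMCD-3 appeared in all 4 of its probe sets, and its size depended on the probe set. The brightest gave -8.76 against the mean of stalk and tip and -8.83 against mesenchyme. The first of these is a ratio of 434 between the linear intensities, but the mIMCD-3 reading lies at the dim level where Vil1 also reads (3.95 to 4.27), so the ratio does not measure how much transcript was left. The other 3 probe sets gave ratios of 10.7, 3.62 and 3.16. Probe set 1416515_at read 7.60 to 8.0 in the tissues and 4.28 in mIMCD-3, a difference of -3.42 against bud. Probe set 1448378_at read 8.81 to 9.29 in the tissues and 7.18 in mIMCD-3, a difference of -1.86. Probe set 1416516_at read 7.23 to 7.60 in the tissues and 5.77 in mIMCD-3, a difference of -1.66. The direction was the same in every case, while 1448378_at kept a signal at the percentile 68.6 of the mIMCD-3 array. RMA gives no call of presence or absence, so whether any transcript remained was not measured.

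**Figure D2:**
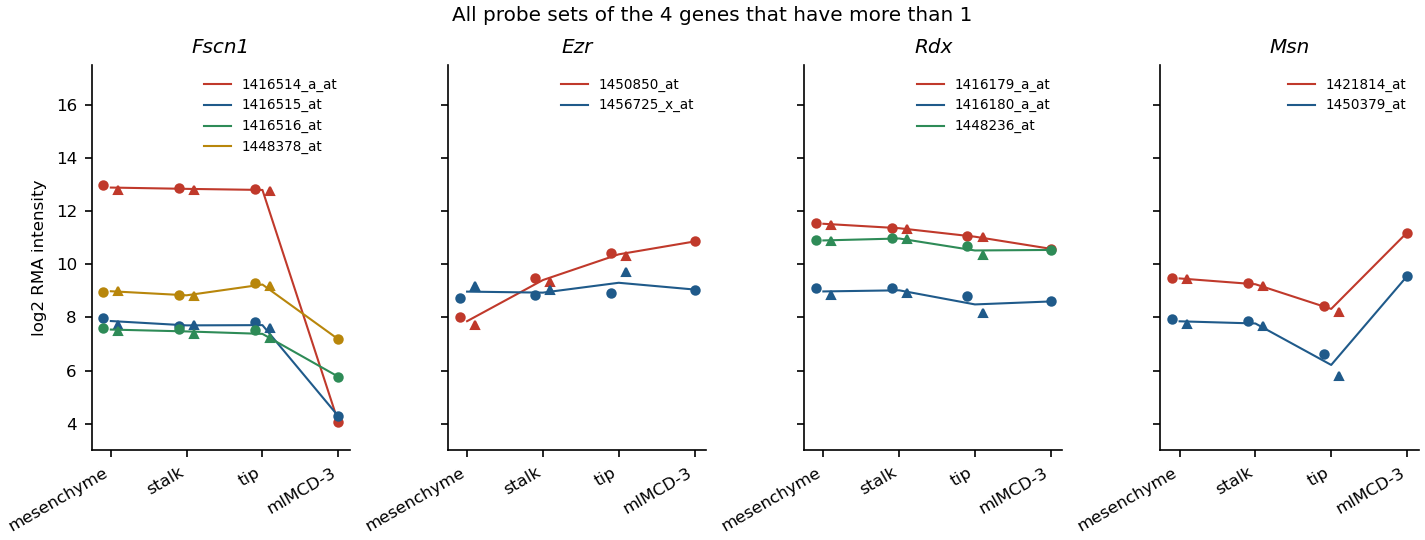
Every probe set of Fscn1, Ezr, Rdx and Msn, as log2 RMA intensity by group, with circles for replicate 1, triangles for replicate 2 and lines through group means. All 4 Fscn1 probe sets drop in mIMCD-3 by unequal amounts, the 2 Ezr probe sets take different courses, and both Msn probe sets dip in tip and peak in mIMCD-3.

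Ezr, the ezrin gene, rose from mesenchyme to stalk to tip, and every step passed the test with its brightest probe set. Probe set 1450850_at read 8.01 and 7.71 in mesenchyme, 9.47 and 9.34 in stalk, 10.44 and 10.31 in tip, and 10.86 in mIMCD-3. No groups overlapped, and mIMCD-3 lay above the highest tip array. Groups of 2 arrays often fail to overlap: this held for 47.9% of all genes in stalk against mesenchyme, 45.1% in tip against mesenchyme, 50.8% in tip against stalk and 22.8% in both bud parts against mesenchyme. Ezr was 1.55 ± 0.15 higher in stalk than in mesenchyme (2.93-fold; limma adjusted p = 0.000783). It was 2.52 ± 0.15 higher in tip than in mesenchyme (5.72-fold; limma adjusted p = 2.2e-05). It was 0.97 ± 0.15 higher in tip than in stalk (1.96-fold; limma adjusted p = 0.00537). Of 11 ureteric bud epithelium markers, 6 were also higher in tip than in stalk and 0 lower, with a median of 0.91. Over all genes 2.86% were called higher there. The part of tissue make-up in this difference was not tested. The step from stalk to tip was lost as a call without stalk replicate 2 (limma adjusted p = 0.0511), against a range of 2.64e-05 to 0.0511 over 15 settings. In mIMCD-3 the value exceeded the bud mean by 0.97 and mesenchyme by 3.0.

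The other Ezr probe set did not show this course. Probe set 1456725_x_at read 8.74 and 9.20 in mesenchyme, 8.83 and 9.04 in stalk, 8.92 and 9.69 in tip, and 9.05 in mIMCD-3. Its groups overlapped throughout. In a fit over all 45037 probe sets, in which 3.16% were called for stalk against mesenchyme and 10.3% for tip against mesenchyme, its tip minus mesenchyme difference was 0.33 ± 0.27 (limma adjusted p = 0.645), and its stalk minus mesenchyme difference was -0.04 ± 0.27 (limma adjusted p = 0.986). With the mean of both probe sets the Ezr differences were 0.76 for stalk and 1.43 for tip against mesenchyme, and both passed (limma adjusted p = 0.0204 and 0.000336). The suffix x_at marks a design in which some probes can match other sequences as well. Whether that accounts for the disagreement was not tested.

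Msn, the moesin gene, ran the other way in the embryo and was highest in the cell line. Probe set 1421814_at read 9.48 and 9.46 in mesenchyme, 9.31 and 9.19 in stalk, 8.42 and 8.22 in tip, and 11.19 in mIMCD-3. Tip lay below the other tissues without overlap, and mIMCD-3 lay above all of them. Tip minus mesenchyme was -1.15 ± 0.13, which is 2.22-fold (limma adjusted p = 0.000714). Against stalk the tip stood at -0.93 ± 0.13 (limma adjusted p = 0.00394). The second call was lost without stalk replicate 1 (limma adjusted p = 0.0506), against a range of 3.78e-05 to 0.0506 over 15 settings. Stalk minus mesenchyme was -0.22 ± 0.13 and did not pass (interval -0.53 to 0.09; limma adjusted p = 0.613).

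Both Msn probe sets took this course. Probe set 1450379_at read 7.94 and 7.76 in mesenchyme, 7.86 and 7.68 in stalk, 6.63 and 5.79 in tip, and 9.55 in mIMCD-3. Its tip minus mesenchyme difference in the fit over all probe sets was -1.64 ± 0.26 (limma adjusted p = 0.00455), and tip minus stalk was -1.56 ± 0.26 (limma adjusted p = 0.00991), where 6.27% of probe sets were called. Against bud, mIMCD-3 was higher by 2.41 with the brighter probe set and by 2.56 with the dimmer one.

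Most markers of endothelium and myeloid cells, in which moesin is abundant, were lower in tip than in mesenchyme, as Msn was. In stalk against mesenchyme 5 of 11 endothelium and 3 of 11 myeloid markers were lower, where 1.24% of all genes were. The Msn difference there was -0.22 and did not pass. Of 11 endothelium markers, 10 were lower in tip than in mesenchyme and 0 higher, and their summed linear intensity lay between 4212 and 4607 in mesenchyme, 2837 and 2913 in stalk, and 1314 and 1404 in tip. Of 11 myeloid markers, 7 were lower in tip and 1, Ptprc, was higher (1.22). The sums of these markers were 1134 to 1270 in mesenchyme, 759.5 to 764.3 in stalk and 445.2 to 539.5 in tip. Their part in the tissue differences of Msn was not tested, nor was that of the stroma markers, which were also lower in tip. In mIMCD-3, where Msn was highest, the endothelium sum was 544 and the myeloid sum 361.5, below every tissue array. The 11 endothelium markers lay there between 4.13 and 7.99, with Cdh5 lowest and Pecam1 at 4.54. Of them, 4 were below the lower quartile of all genes on that array.

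Rdx, the radixin gene, changed less than its relatives. Probe set 1416179_a_at read 11.56 and 11.50 in mesenchyme, 11.38 and 11.34 in stalk, 11.06 and 11.02 in tip, and 10.59 in mIMCD-3. The groups stepped down in that order without overlap, yet the steps were small. Tip minus mesenchyme was -0.49 ± 0.12 (1.40-fold; limma adjusted p = 0.0303). This call was lost in 8 of 15 settings, 5 of them without mesenchyme replicate 1, mesenchyme replicate 2, stalk replicate 1, stalk replicate 2 or tip replicate 2 (limma adjusted p from 0.055 to 0.183), with a range of 1.69e-05 to 0.183 over all 15. From stalk to tip the difference was -0.32 ± 0.12 and did not pass (limma adjusted p = 0.168). Over 15 settings it lay between -0.43 and -0.30 and passed in 2. In the fit over all probe sets 1416180_a_at and 1448236_at gave -0.53 and -0.45 there, and neither passed (limma adjusted p = 0.264 and 0.166). Stalk minus mesenchyme was -0.17 ± 0.12 and did not pass (limma adjusted p = 0.693). The other Rdx probe sets gave -0.49 (1416180_a_at) and -0.38 (1448236_at) for tip minus mesenchyme, and neither passed (limma adjusted p = 0.28 and 0.22). In mIMCD-3 the 3 probe sets stood at -0.62, -0.15 and -0.21 against bud.

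Of the microvillus bundlers, Vil1 gave no signal above the dim end of any array. It read 4.02 and 4.18 in mesenchyme, 4.02 and 4.13 in stalk, 3.95 and 4.27 in tip, and 3.96 in mIMCD-3, at percentiles from 23.1 to 26.0. All groups overlapped. Its differences between tissues lay between -0.02 and 0.04, none passed, and a value this low carries little information on direction.

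Pls1, which encodes the plastin of epithelial microvilli, was at a middling level in the tissues and higher in mIMCD-3. It read 7.08 and 7.27 in mesenchyme, 6.95 and 6.78 in stalk, 7.31 and 7.43 in tip, and 8.31 in mIMCD-3. Stalk lay below both other tissues and tip above them, by small margins and without overlap. Tip minus stalk was 0.50 ± 0.14 (limma adjusted p = 0.0663) and passed with the replicate number as a block (limma adjusted p = 0.0205), against a range of 0.0205 to 0.426 over 15 settings. The other comparisons did not pass, with stalk minus mesenchyme at -0.31 ± 0.14 (limma adjusted p = 0.413) and tip minus mesenchyme at 0.20 ± 0.14 (limma adjusted p = 0.493). The mIMCD-3 value exceeded the bud mean by 1.20 and mesenchyme by 1.14.

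Espn, the espin gene, was higher in tip than in stalk, as Ezr was. It read 5.67 and 5.57 in mesenchyme, 4.98 and 4.67 in stalk, 6.46 and 5.87 in tip, and 5.77 in mIMCD-3. Stalk was lowest and tip highest, with mesenchyme between them and no overlap, and the tip arrays stood apart from each other by more than those of any other group. Tip minus stalk was 1.34 ± 0.21 (2.53-fold; limma adjusted p = 0.00595), and it passed in all 14 settings that held the gene. Leaving out the dimmest 40% of genes removed Espn, so that setting gave no value for it. Stalk minus mesenchyme was -0.80 ± 0.21 (limma adjusted p = 0.087), and tip minus mesenchyme was 0.54 ± 0.21 (limma adjusted p = 0.152). Both passed with the replicate block (limma adjusted p = 0.00539 and 0.018), against ranges of 0.00539 to 0.451 and 0.018 to 0.393 over 14 settings. Stalk minus mesenchyme passed in 6 of its 14 settings, among them without tip replicate 1 and without tip replicate 2 (limma adjusted p = 0.0232 for both). Tip minus mesenchyme passed without tip replicate 2, where it was 0.83 (limma adjusted p = 0.022). The mean of stalk and tip stood at -0.13 ± 0.18 against mesenchyme, with the stalk below and the tip above it. Within the arrays Espn lay at percentiles from 35.8 to 61.8 of the probe sets. The stalk arrays were lowest, at 42.4 and 35.8. The gene has 1 probe set, so no other probe set could be set beside this call.

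Pls3, the plastin gene expressed widely in solid tissues, was higher in both parts of the bud than in mesenchyme. It read 9.85 and 9.73 in mesenchyme, 10.53 and 10.48 in stalk, 10.51 and 10.38 in tip, and 9.20 in mIMCD-3. Stalk and tip overlapped each other, both lay above mesenchyme, and mIMCD-3 lay below every tissue. Stalk minus mesenchyme was 0.71 ± 0.13 (1.64-fold; limma adjusted p = 0.0178), and tip minus mesenchyme was 0.66 ± 0.13 (1.57-fold; limma adjusted p = 0.0108). The stalk call was lost without mesenchyme replicate 1, mesenchyme replicate 2, stalk replicate 1 or stalk replicate 2 (limma adjusted p from 0.0684 to 0.207; range over 15 settings 2.95e-05 to 0.207). The tip call was lost without mesenchyme replicate 2 (limma adjusted p = 0.0839; range 3.05e-05 to 0.0839). Between stalk and tip the difference was -0.06 ± 0.13, with an interval of -0.36 to 0.24. The mIMCD-3 value stood at -1.28 against bud and -0.59 against mesenchyme. Thus the 2 plastin genes took opposite directions in the line against bud, Pls1 higher and Pls3 lower, on the single array.

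**Figure D3:**
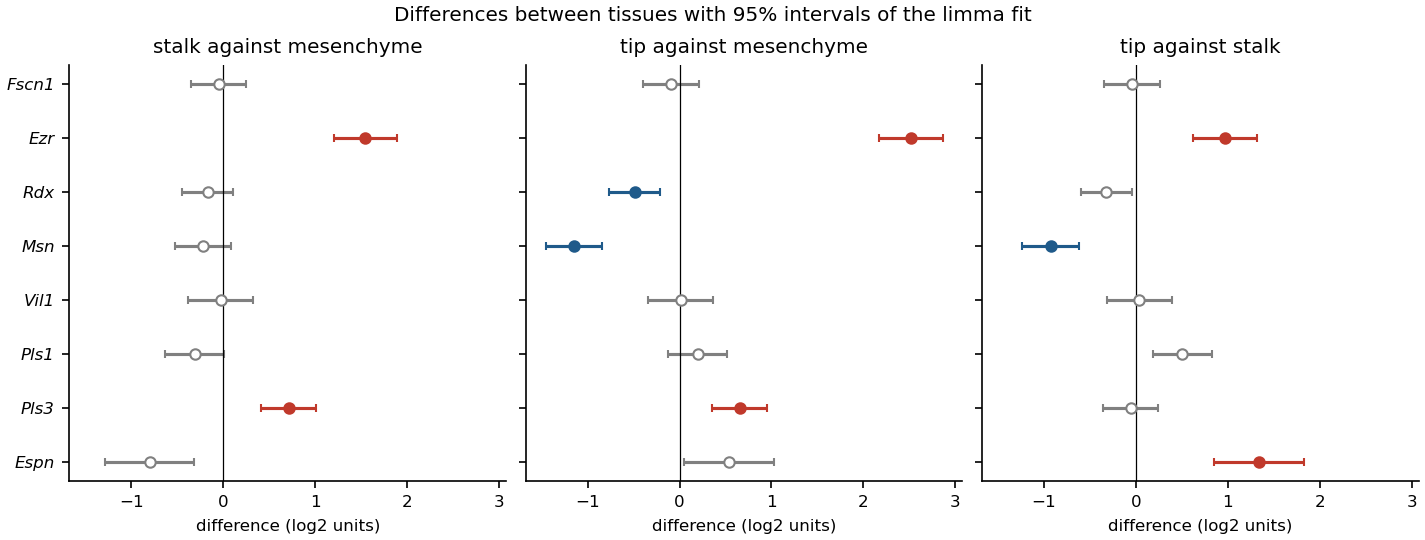
Differences between tissues for the 8 genes, in log2 units with 95% intervals of the limma fit (2 arrays a group). Red points are called higher, blue points called lower and open grey points not called; Ezr is red in all 3 comparisons, Fscn1 and Vil1 are open in all 3, and Espn is red only for tip against stalk.

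Counted over the set, 2 of 8 genes were higher in stalk than in mesenchyme and 0 lower, where 5.54% of all genes were called either way (4.3% higher and 1.24% lower). In tip against mesenchyme, 2 were higher and 2 lower, where 15.7% of all genes were called (7.38% higher and 8.37% lower). In tip against stalk, 2 were higher and 1 lower, where 9.83% were called (2.86% higher and 6.97% lower). For the mean of stalk and tip against mesenchyme, 2 were higher (Ezr by 2.03 ± 0.13, Pls3 by 0.68 ± 0.11) and 1 lower (Msn at -0.68 ± 0.11), where 11.1% were called (6.13% higher and 4.96% lower). In the same comparison 7.0% of all probe sets were called, and the second Msn probe set was not (-0.86 ± 0.22; limma adjusted p = 0.0639). Without mesenchyme replicate 2, the counts were 1 for stalk against mesenchyme, 2 for tip against mesenchyme and 1 for the mean of stalk and tip. The Msn call for that mean was also lost without mesenchyme replicate 1 (limma adjusted p = 0.0603; range over 14 settings 0.000187 to 0.0603). The count for stalk against mesenchyme was likewise 1 without mesenchyme replicate 1, stalk replicate 1 or stalk replicate 2. The median difference of the 8 genes was -0.11, 0.10 and 0.00 in the first 3 comparisons, against -0.04, 0.01 and 0.07 over all genes. The comparisons share arrays, so their counts are not independent of each other.

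Against bud, 4 of the 8 genes differed by at least 1 log2 unit in mIMCD-3, with Msn and Pls1 higher and Fscn1 and Pls3 lower. Of all genes, 19.1% lay past this size (9.75% higher and 9.33% lower), and the Fscn1 entry was chosen for it. Without stalk replicate 1 or without tip replicate 1 Ezr was also past this size, which made 5. Against mesenchyme, 4 genes lay past 1 log2 unit, with Ezr, Msn and Pls1 higher and Fscn1 lower, where 21.0% of all genes did (11.2% higher and 9.78% lower). Ezr counted here only through its brightest probe set, as 1456725_x_at stood at 0.08 against mesenchyme and -0.07 against bud. The Fscn1 entry was chosen for its loss here too. There is no replicate of the line, so these are differences between single values and group means.

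**Figure D4:**
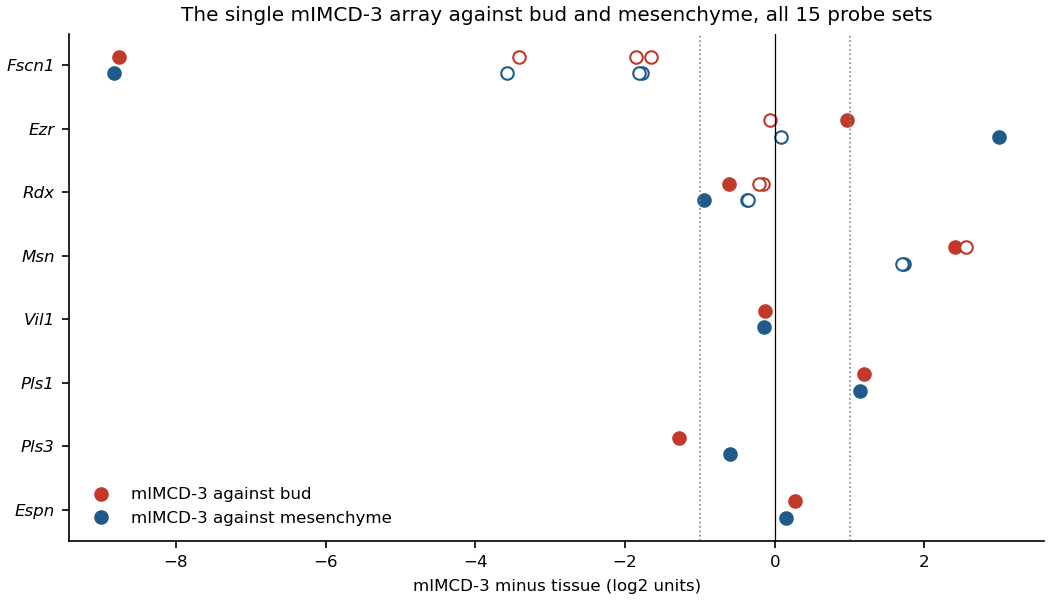
Difference of the single mIMCD-3 array from the bud mean (red) and the mesenchyme mean (blue), in log2 units, for all 15 probe sets. Filled points are the brightest probe set of a gene, open points the others, and dotted lines mark 1 log2 unit; the 4 Fscn1 probe sets lie left of the line and both Msn probe sets right of it.

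Related genes give the setting of these values. Of 16 measured ERM partners and regulators, 1 was higher in tip than in mesenchyme and 5 were lower, with a median of -0.15, where 7.38% of all genes were called higher and 8.37% lower. The higher one was Slc9a3r1, which encodes the scaffold that binds ezrin below the apical membrane (0.58; limma adjusted p = 0.0151). The lower ones included the hyaluronan receptor gene Cd44 (-2.43; limma adjusted p = 0.000112), the adhesion gene Icam2 (-1.50; limma adjusted p = 0.00114) and the podocalyxin gene Podxl (-1.11; limma adjusted p = 0.00119). Icam2 and Podxl are also made by endothelium. The second Podxl probe set gave 0.05, and the other Cd44 probe sets gave -2.04, -0.46 and 0.12. The call of Slc9a3r1 did not hold in every setting, as 0 genes of the list were higher without mesenchyme replicate 1, mesenchyme replicate 2, stalk replicate 1 or stalk replicate 2, and 2 were with the replicate block.

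Of 15 microvillus and brush border genes, 5 were higher in tip than in mesenchyme and 0 lower, with a median of 0.20, beside the same shares over all genes (7.38% higher and 8.37% lower). These were the myosin gene Myo6 (1.96), the prominin gene Prom1 (1.76), Eps8l2 (1.21), Eps8l1 (1.21) and Baiap2l1 (1.18), the last 3 of which encode adaptors that bind actin regulators. Without tip replicate 2, 1 gene of this list was lower. Of 15 genes for filopodia and linear actin assembly, 5 were higher and 0 lower, with a median of 0.22, again beside 7.38% and 8.37% of all genes. The formin genes Diaph2 (2.00), Fmn1 (1.86) and Daam1 (1.48) led them. The second probe sets of Diaph2 and Fmn1 gave 0.22 and 0.38, and of the 3 Daam1 probe sets 1 gave -0.44. The higher count was 3 without mesenchyme replicate 1, stalk replicate 1, stalk replicate 2 or tip replicate 1, and 1 gene was lower with the replicate block and without tip replicate 1.

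Other bundlers and crosslinkers ran toward lower values in tip. Of 16 measured, 0 were higher than in mesenchyme and 6 lower, with a median of -0.26, where 8.37% of all genes were called lower. The alpha-actinin gene Actn3 (-3.81), the synaptopodin gene Synpo (-2.53) and the palladin gene Palld (-2.36) had the largest differences. The second Synpo probe set gave -0.24, and the other Palld probe sets gave -1.29, -0.44 and -0.001. Lcp1, the plastin gene of leukocytes, stood at -1.52 (limma adjusted p = 0.000226), and the myeloid markers given above had lower sums in the same arrays; their part was not tested. Of the 7 gelsolin and villin relatives, 2 were higher and 1 lower, with a median of 0.28, where 7.38% of all genes were called higher and 8.37% lower. The capping gene Capg (2.02) and the severing gene Scin (1.94) were higher, and the gelsolin gene Gsn (-1.60; limma adjusted p = 0.00045) lower. The lower count was 2 with the replicate block and without tip replicate 1. Synpo, Palld and Gsn moved with the stroma markers, of which 10 of 10 were lower in tip: their means were 6.88, 9.24 and 8.07 in mesenchyme, 7.87, 9.76 and 8.40 in stalk, and 4.35, 6.88 and 6.47 in tip. The part of stromal RNA in these differences was not tested.

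**Figure D5:**
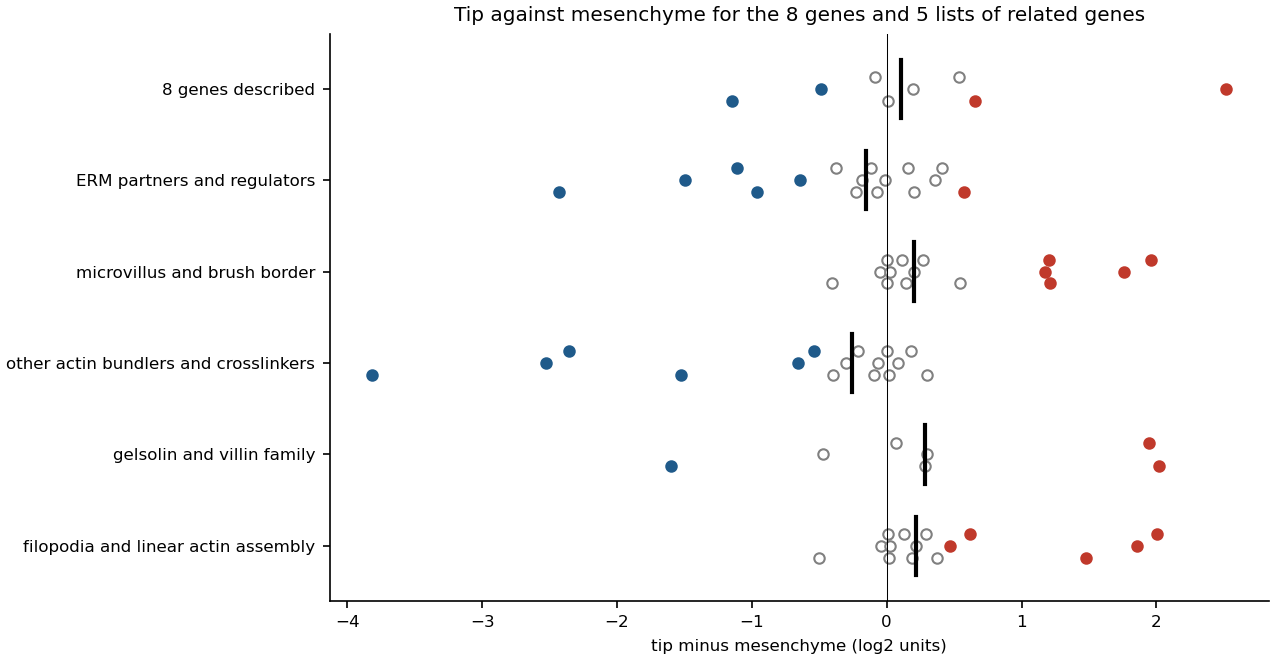
Tip minus mesenchyme, in log2 units, for the 8 genes and for 5 lists of related genes, 1 point a gene. Red and blue points are called higher and lower by limma, open points are not called and black bars are medians; microvillus genes have called points only on the right and the other bundlers and crosslinkers only on the left.

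In mIMCD-3, 3 of the 7 gelsolin relatives were higher than in bud by at least 1 log2 unit and 0 were lower, where 9.75% of all genes were higher and 9.33% lower by that size. The other 4 relatives stood between -0.38 and 0.80. Gsn read 8.19 and 7.96 in mesenchyme, 8.56 and 8.23 in stalk, 6.59 and 6.35 in tip, and 11.34 in mIMCD-3. Scin was higher than bud by 3.57 and Capg by 2.54. Among the ERM partners 4 of 16 were higher, including Cd44 by 4.27 and Slc9a3r1 by 2.01, and 2 were lower, the podoplanin gene Pdpn (-4.59) and Icam2 (-2.25). Of the other bundlers and crosslinkers 2 of 16 were higher and 5 lower, with Marcks at -1.77. Of the microvillus list 2 of 15 were higher (Eps8l2 by 2.28 and Eps8 by 1.42), and of the 15 on the filopodia list 1 was higher (Diaph3 by 2.00) and 2 lower. The shares for the microvillus and filopodia lists lie near those over all genes.

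Among 1213 genes with a standard deviation of at least 1 log2 unit over the 7 arrays, those with the pattern most like Fscn1 were Zfp503, Mdk, Cachd1, Auts2 and Serpinf1 (Pearson r from 0.999 to 1.00). The growth factor gene Mdk, for example, read 13.12 to 13.29 in the tissues and 6.37 in mIMCD-3. These correlations rest on the mIMCD-3 array, the only one that departs. The Auts2 probe set used here gave -6.28 in mIMCD-3 against bud, and the other Auts2 probe sets gave between -3.54 and -0.33. Those most like Ezr were Mboat1, Rab3ip, Adgrg6, Cd9 and Camsap3 (r from 0.995 to 0.998). The tetraspanin gene Cd9 read 7.43 and 7.10 in mesenchyme, 8.87 and 8.81 in stalk, 9.68 and 9.52 in tip, and 10.37 in mIMCD-3. Those most like Msn were Adamts1, Scarf2, Dubr, Emp2 and Anxa3 (r from 0.990 to 0.996). The annexin gene Anxa3 read 8.78 and 8.57 in mesenchyme, 8.57 and 8.48 in stalk, 7.12 and 6.89 in tip, and 12.60 in mIMCD-3. The arrays of a group share tissue and processing, so r describes 7 points that are not independent.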

How the data were processed

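The deposited values are RMA intensity on a linear scale, recalculated by the authors over all 7 arrays, per the series' design text; software and version are not given in the sources used here. They were converted to log2 without a filter. For each gene the single-gene probe set with the highest mean over the arrays was used, and 6 tissue arrays entered 1 limma fit (limma 3.58.1, R 4.3.3; a coefficient per group, two-sided, Benjamini-Hochberg over 18193 genes, called under 0.05). mIMCD-3 was described by size. The members, lists and rules were chosen with earlier results of these data known. Of 76 related genes listed, 69 were measured; all members were named, with up to 3 called genes of the largest difference a list and comparison and the 5 genes most like Fscn1, Ezr and Msn. Slc9a3r1, Eps8l1, Eps8l2, Baiap2l1, Lcp1, Aqp2, Pecam1 and Cdh5 were named after their values were seen. Lists for erythroid and neural cells served as checks: of 5 and 9 genes, 4 and 4 were lower in tip than in mesenchyme. Of 11 collecting duct genes 7 were higher, among them Cdh1, Epcam, Krt8 and Krt18, which are also on the ureteric bud list. Over all genes 7.38% were called higher and 8.37% lower. In mIMCD-3, 1 collecting duct gene was higher than in bud by at least 1 log2 unit and 2 were lower.

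The fit behind every printed p-value has no replicate block unless the sentence names one. The labels state no pairing, but differences of replicate 1 minus replicate 2 correlated at 0.39, 0.57 and 0.43 between the tissues, all above 0.1, so the blocked value is printed wherever it changes a call. On simulated data for tip against mesenchyme with 18193 genes, 61% of genes changed by 1 log2 unit and 90% of those changed by 2 were recovered. There 100 genes were changed by each size, and the noise was drawn separately for each array. In the real comparison 15.7% of genes were called and the replicate differences correlated, so these shares do not carry over to it. Figures were drawn with matplotlib 3.10.9.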

Additional observations from a re-analysis of the deposited data

How the results depend on the processing

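Leaving out 1 array in turn gave between 1 and 3 called genes for stalk against mesenchyme, 2 to 4 for tip against mesenchyme, 2 to 3 for tip against stalk and 1 to 3 for the mean of stalk and tip against mesenchyme, where the full fit gave 2, 4, 3 and 3. These fits have fewer arrays by construction. Requiring every probe set of a gene to be called gave 1 for stalk against mesenchyme, 2 for tip against mesenchyme and 1 for the mean of stalk and tip. Vil1, Pls1, Pls3 and Espn have 1 probe set each, so the rule asks nothing further of them. The gene counted for stalk and for the mean of stalk and tip was Pls3. For tip against mesenchyme the genes were Pls3 and Msn, and only Msn has more than 1 probe set. With the replicate block the counts were 3, 5, 4 and 4. Beside the calls of Espn and Pls1 given above, the block added Rdx for the mean of stalk and tip (limma adjusted p = 0.0348) and changed no other call. Calls over all 18193 genes rose with the block as well. For stalk against mesenchyme they went from 782 higher and 225 lower to 1231 and 577. For tip against mesenchyme they went from 1342 and 1523 to 2037 and 2331. For tip against stalk they went from 521 and 1268 to 1623 and 2131. For the mean of stalk and tip they went from 1116 and 902 to 1655 and 1552. Of 460 recomputed differences of single genes, 393 kept their direction and side of the threshold, 16 newly passed and 24 no longer did.

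The remaining 27 changed sign. Only the stalk minus mesenchyme difference of Ezr, at -0.039 with 1456725_x_at, had been called. Leaving out 1 array in turn moved Fscn1 between -0.137 and 0.039 for stalk against mesenchyme, between -0.090 and 0.0076 for tip against stalk, and between -0.157 and 0.018 for the mean of stalk and tip. It moved Vil1 between -0.106 and 0.056, between -0.146 and 0.172, between -0.122 and 0.197 and between -0.087 and 0.075 for the 4 comparisons in the order above. It moved Pls3 between -0.128 and 0.012 for tip against stalk, and for the mean of stalk and tip Pls1 between -0.154 and 0.041 and Espn between -0.277 and 0.016. Quantile normalization of the tissue arrays gave 0.051, -0.0070, -0.058 and 0.022 for Vil1. For Fscn1, tip against stalk was 0.070 with the mean of its probe sets, 0.0092 with 1416515_at and 0.41 with 1448378_at, and the last gave 0.25 for tip and 0.050 for the mean of stalk and tip against mesenchyme. For Rdx, stalk against mesenchyme was 0.042 with 1416180_a_at and 0.074 with 1448236_at. The cause was not tested. Vil1 read near the lower quartile of every array, and leaving out the dimmest 40% of genes took Vil1 and Espn with it.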
